A study of Mus musculus with 6 samples.

Results

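Messenger RNA of 10 genes of the Notch pathway was followed in YUMM3.3 tumors from mice given rigosertib (RGS) or vehicle. The genes were the receptors Notch1, Notch2, Notch3 and Notch4, the ligands Jag1, Jag2 and Dll1, and the target genes Hes1, Hey1 and Heyl. They were taken by gene name from a table of 40166 mouse genes, in which each name had a single entry. Under RGS, Notch4 rose 11.7-fold and Notch3 fell to 0.414 of its vehicle level. Notch2 passed the threshold with a log2 fold change of 0.51, although its groups overlapped and the call was lost in 7 of 16 alternative fits, and Notch1 did not pass (adjusted p = 0.343). None of the 3 ligands and neither of the 2 target genes that could be tested passed the threshold, and Heyl had no read in any tumor. The ligand Dll4, which belongs to the same family but not to these 10 genes, rose 14.1-fold.

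Notch receptors are single-pass membrane proteins that are activated by ligands on neighboring cells. Ligand binding exposes the receptor to an ADAM protease and then to gamma-secretase, which frees the intracellular domain to enter the nucleus. There it joins the DNA-binding protein Rbpj and Mastermind coactivators on target genes, of which the Hes and Hey repressors are the best known. In blood vessels, Notch4 and Dll4 are known from endothelial cells and Notch3 from pericytes and smooth muscle, while Notch1 and Notch2 are expressed widely.

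YUMM3.3 cells come from a mouse melanoma with mutant BRAF, and RGS is a small molecule that the authors describe as a RAS mimetic. They add that several modes of action have been reported, and that the source of microtubule-destabilizing activity in RGS preparations is disputed. The line was implanted under the skin of immunocompetent C57BL/6 mice. The RGS group (3 tumors) received RGS at 300 mg/kg by gavage on weekdays, and the vehicle group (3 tumors) received water by the same route. The labels describe the samples as melanoma tumors, sequenced in bulk after 17 days. Mice were 8 to 10 weeks old at implantation across the experiments, and the age and sex of each of these mice were not given. A single cell line was used as the model. The replicates are separate tumors numbered 7, 8 and 9 (vehicle) and 10, 11 and 12 (RGS), and whether tumors shared a mouse or cage was not given, so p-values measure the spread between these tumors.

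Total counts were 22793087 to 32555494 in vehicle tumors and 13837932 to 21617368 in RGS tumors, and these ranges did not overlap. A floor of 3 counts corresponded to 0.0856 to 0.226 CPM (counts scaled to a common library size with TMM factors), and such floors cover counting error only. The labelled tissue was compared with marker genes: 6 of 10 melanocyte markers had at most 3 counts in every tumor, with Tyr, Dct and Mlana at 0, and the summed melanocyte level was 4.94 to 7.68 CPM in vehicle and 4.53 to 12.7 CPM in RGS tumors. Some markers that define host cells were at 0 in all tumors as well: Ptprc for leukocytes, Cd3e for T cells, Adgre1 for macrophages, Lum for fibroblasts, and Erg, Emcn and Robo4 for endothelial cells. Other markers of these lists had reads in every tumor, such as Laptm5 (153 to 952 CPM), Pdgfra (96.9 to 214 CPM) and Eng (39.4 to 71.4 CPM). At most 3 counts in every tumor were found for 5 of 12 endothelial, 1 of 10 fibroblast, 5 of 10 macrophage and 6 of 10 T cell markers. The zeros go against what a whole melanoma with host cells would hold, while only part of the lists had reads in every tumor. Sox10, which the paper stained as a melanoma cell marker, had 18 counts in RGS 11 and 0 in all other tumors. Csf1r, a macrophage marker, had at most 1 count. The cells that the Notch values come from were not determined. Of the 15355 genes tested, 32.8% passed an adjusted p of 0.05 in either direction, 16.3% were higher and 16.5% were lower under RGS, and the median log2 fold change was -0.05.

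The promoters of the receptors and canonical ligand with the largest called changes are shown first, 250 bases before and 50 bases after the RefSeq start site (build GRCm38.p6). They belong to Notch4 and Dll4, which rose, and Notch3, the receptor that fell. The Notch4 window lies at chr17:34564045-34564344 on the plus strand, the Dll4 window at chr2:119325534-119325833 on the plus strand and the Notch3 window at chr17:32166841-32167140 on the minus strand. Each is written from 5′ to 3′, and capitals mark the one motif found.
Notch4: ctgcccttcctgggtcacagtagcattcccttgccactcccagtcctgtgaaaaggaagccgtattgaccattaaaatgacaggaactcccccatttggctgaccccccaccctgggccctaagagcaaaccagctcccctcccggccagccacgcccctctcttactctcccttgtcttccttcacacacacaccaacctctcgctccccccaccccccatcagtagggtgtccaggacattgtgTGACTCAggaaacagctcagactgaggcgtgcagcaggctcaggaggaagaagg
Dll4: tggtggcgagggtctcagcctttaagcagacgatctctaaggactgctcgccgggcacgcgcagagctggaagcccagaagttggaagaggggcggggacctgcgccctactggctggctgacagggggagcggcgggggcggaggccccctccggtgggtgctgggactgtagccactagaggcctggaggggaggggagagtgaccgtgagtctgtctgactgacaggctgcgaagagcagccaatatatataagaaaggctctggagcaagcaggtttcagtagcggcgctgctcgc
Notch3: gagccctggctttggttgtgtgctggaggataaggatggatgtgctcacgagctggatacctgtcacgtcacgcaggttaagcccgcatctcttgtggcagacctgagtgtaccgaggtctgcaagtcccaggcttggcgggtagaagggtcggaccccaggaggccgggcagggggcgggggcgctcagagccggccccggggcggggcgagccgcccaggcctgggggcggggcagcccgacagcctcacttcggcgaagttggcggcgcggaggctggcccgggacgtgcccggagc

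Motifs were searched on both strands as exact letters: TGGGAA for the Rbpj core, TGACTCA for AP-1 and CACGTG for the E-box. RefSeq windows were found for 7 of the 10 genes (not for Hes1, Hey1 and Heyl). Among these and Dll4 the only match was TGACTCA in the Notch4 promoter, from position -4 to 3 around the start site. Of 32841 mouse promoters of the same length, 5.2% held TGACTCA, 25.6% held TGGGAA and 7.15% held CACGTG. The letters G and C made up 58.3% of the Notch4 window, 63.7% of the Dll4 window and 70% of the Notch3 window, and the windows of the other matched genes ranged from 55.7% for Jag1 to 86% for Jag2. These matches describe letters in a window and were not tested as binding sites.

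Notch4 (ENSMUSG00000015468.14, chromosome 17, 34564268 to 34588503, plus strand, build mm10) encodes the receptor best known from endothelial cells. Its level was 2.63, 1.996 and 0.903 CPM in vehicle tumors 7, 8 and 9 and 21.1, 21.8 and 21.9 CPM in RGS tumors 10, 11 and 12. The RGS tumors lay close together, and the lowest of them was far above the highest vehicle tumor. The raw counts behind these levels were 92, 56 and 21 in vehicle tumors and 446, 289 and 358 in RGS tumors, so the rise was also visible before scaling, although the RGS libraries were shallower. Mean levels were 1.84 ± 0.872 CPM (SD, n = 3) and 21.6 ± 0.423 CPM (SD, n = 3). The difference was 3.53 on the log2 scale (SE 0.37, 95% interval 2.76 to 4.30, adjusted p = 7.73e-07, edgeR's quasi-likelihood test, Benjamini-Hochberg adjusted over all genes tested). The processed pseudogene Gm20462, which lies inside Notch4, had 0 to 1 counts.

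Notch3 (ENSMUSG00000038146.7, chromosome 17, 32120820 to 32166880, minus strand) encodes the receptor of pericytes and vascular smooth muscle. It measured 20.2, 11.5 and 12.2 CPM in the vehicle tumors and 6.30, 5.50 and 6.42 CPM in the RGS tumors. Vehicle 7 was the highest, and no RGS tumor reached the lowest vehicle tumor. Means were 14.7 ± 4.82 CPM and 6.07 ± 0.501 CPM (SD, n = 3 each). The log2 fold change was -1.27 (SE 0.32, 95% interval -1.95 to -0.59, adjusted p = 0.00519, same test). The lincRNA Gm17276, which overlaps Notch3, had no counts.

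Notch2 (ENSMUSG00000027878.11, chromosome 3, 98013527 to 98150361, plus strand) had the highest level per length of the 4 receptors. Vehicle tumors had 73.9, 49.7 and 49.9 CPM and RGS tumors 93.9, 82.0 and 71.8 CPM. The groups overlapped, since RGS 12 was just below vehicle 7. From 57.9 ± 13.9 CPM to 82.6 ± 11.04 CPM (SD, n = 3 each), Notch2 passed the threshold with a log2 fold change of 0.51 (SE 0.19, 95% interval 0.12 to 0.91, adjusted p = 0.0444, same test). That call was lost in 7 of 16 alternative fits. Leaving out vehicle 8, vehicle 9, RGS 10 or RGS 11 gave log2 fold changes of 0.44, 0.42, 0.41 and 0.51 with adjusted p of 0.177, 0.141, 0.161 and 0.102 (edgeR, same test). The overlapping genes Gm42819 and Gm42820 had at most 10 and 23 counts.

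Notch1 (ENSMUSG00000026923.15, chromosome 2, 26457903 to 26516663, minus strand), the receptor with the broadest known roles, varied within both groups. Its levels were 8.11, 9.05 and 1.98 CPM in vehicle tumors and 6.49, 2.86 and 2.20 CPM in RGS tumors. Vehicle 9 was the lowest of all 6 tumors and RGS 10 stood above the other RGS tumors, so the groups overlapped. Notch1 did not pass the threshold: means were 6.38 ± 3.84 and 3.85 ± 2.31 CPM (SD, n = 3 each), with a log2 fold change of -0.72 (SE 0.55, 95% interval -1.88 to 0.44, adjusted p = 0.343, same test). The interval spans a large fall as well as a small rise. Of the overlapping transcripts, Gm13568 had no counts and 0610009E02Rik had at most 14.

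**Figure D1:**
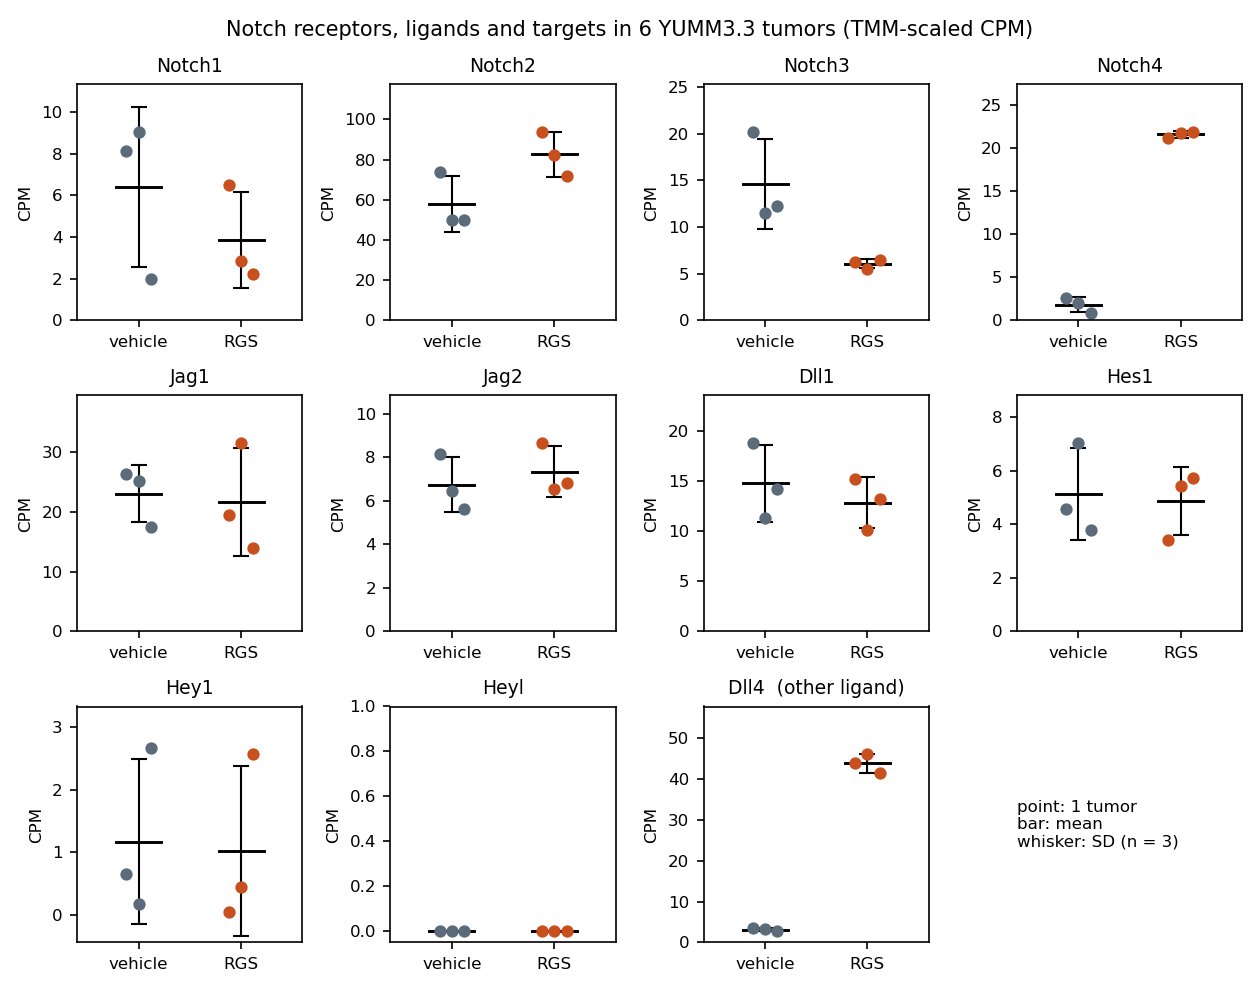
Levels in CPM (vertical axes, each panel with its own scale) of the 10 genes and of Dll4 in the vehicle and RGS tumors; points are single tumors, bars are means and whiskers are 1 SD (n = 3). In the Notch4 and Dll4 panels all RGS tumors lie above all vehicle tumors, in the Notch3 panel all lie below, and in the other panels the groups overlap; Heyl is at 0 throughout.

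Jag1 (ENSMUSG00000027276.7, chromosome 2, 137081456 to 137116644, minus strand) encodes a Serrate-type ligand. It measured 26.3, 25.2 and 17.5 CPM in vehicle tumors and 19.5, 31.6 and 13.95 CPM in RGS tumors. RGS 11 was the highest tumor and RGS 12 the lowest, so both extremes lay in the treated group. The log2 fold change was -0.09 (SE 0.28, 95% interval -0.67 to 0.49, adjusted p = 0.832, same test).

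Jag2 (ENSMUSG00000002799.6, chromosome 12, 112907819 to 112929776, minus strand), the second Serrate-type ligand, was the lowest of these 3 ligands per length. Vehicle tumors had 8.14, 6.45 and 5.63 CPM and RGS tumors 8.66, 6.55 and 6.79 CPM, with overlapping groups. Its log2 fold change of 0.12 (SE 0.36, 95% interval -0.63 to 0.88, adjusted p = 0.825) did not pass. The microRNA gene Mir6941 within Jag2 had no counts.

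Dll1 (ENSMUSG00000014773.13, chromosome 17, 15367354 to 15376872, minus strand), a Delta-type ligand, showed 18.8, 11.3 and 14.2 CPM in vehicle and 15.2, 10.1 and 13.2 CPM in RGS tumors. These groups overlapped too. The log2 fold change was -0.20 (SE 0.28, 95% interval -0.79 to 0.39, adjusted p = 0.629, same test). The overlapping lincRNA A930024N18Rik had at most 19 counts. For all 3 ligands the interval excluded a doubling and a halving of the level, which is a log2 fold change of 1 in either direction.

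Dll4 (ENSMUSG00000027314.6, chromosome 2, 119325784 to 119335962, plus strand), the Delta-type ligand of sprouting endothelium, differed from these 3. It measured 3.43, 3.17 and 2.75 CPM in vehicle tumors and 43.9, 46.3 and 41.6 CPM in RGS tumors. Both groups were tight and far apart. From 3.12 ± 0.340 to 43.9 ± 2.33 CPM (SD, n = 3 each), the log2 fold change was 3.81 (SE 0.24, 95% interval 3.31 to 4.32, adjusted p = 1.33e-09, same test). The overlapping transcript Gm14207 had 1 to 30 counts against 64 to 928 for Dll4. The remaining canonical ligand, Dll3, had too few counts to be tested.

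Hes1 (ENSMUSG00000022528.8, chromosome 16, 30064384 to 30067796, plus strand) encodes the repressor most often read as a sign of Notch activity. Its levels were 4.57, 7.06 and 3.78 CPM in vehicle tumors and 3.41, 5.42 and 5.75 CPM in RGS tumors. The groups overlapped over most of their range. The log2 fold change was -0.08 (SE 0.45, 95% interval -1.02 to 0.86, adjusted p = 0.907, same test), an interval that leaves room for changes of close to 2-fold.

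Hey1 (ENSMUSG00000040289.8, chromosome 3, 8663359 to 8667256, minus strand), a repressor of the endothelial and cardiac Notch response, was barely expressed. Raw counts were 23, 5 and 62 in vehicle tumors and 1, 6 and 42 in RGS tumors. Vehicle 9 and RGS 12 carried most of the reads of their groups, and RGS 10 was below the floor of 3 counts. With a log2 fold change of -0.19 (SE 1.25, 95% interval -2.80 to 2.43, adjusted p = 0.926), the spread between tumors was too wide to show a change of either sign. Heyl (ENSMUSG00000032744.4, chromosome 4, 123233556 to 123249875, plus strand), a related repressor known from smooth muscle, had 0 counts in all 6 tumors, which allows at most 0.0856 to 0.226 CPM per library.

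Over the set, 9 of the 10 genes passed the filter on low counts, and 2 of them were called higher and 1 lower. Beside this stand 16.3% higher and 16.5% lower among all genes tested, so the number of calls was near the background. The groups did not overlap for 2 of the 9 genes, against 45.8% of all genes. The median log2 fold change of the 9 was -0.09, beside -0.05 over all genes.

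The order of the genes was compared on the RPKM scale, that is, CPM divided by the gene length in kilobases. In vehicle tumors Notch2 led with 5.37 RPKM, followed by Jag1 at 3.95, Dll1 at 3.50, Hes1 at 2.52 and Notch3 at 1.82 RPKM. Lower down were Jag2 at 0.968, Notch1 at 0.448, Hey1 at 0.357 and Notch4 at 0.228 RPKM. Neighbors from Jag1 to Notch3 overlapped in their tumor values, and so did Notch1 with Hey1 and Hey1 with Notch4. In RGS tumors Notch4 stood at 2.68 RPKM, above Hes1 at 2.39 and below Dll1 at 3.04 RPKM, while Notch3 stood at 0.755 RPKM between Jag2 and Hey1. There Jag1 overlapped with Dll1, Dll1 with Notch4, Notch4 with Hes1, Notch3 with Hey1, and Hey1 with Notch1. Notch2 stayed above the other 9 genes in both groups, with 7.66 RPKM under RGS, while Dll4, outside the 10, had 11.4 RPKM there.

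Expressed as a share of the summed RPKM of the 4 receptors, Notch4 made up 3.17%, 3.57% and 1.75% in vehicle tumors and 20.8%, 24.1% and 26.3% in RGS tumors. The Notch3 share moved the other way, from 24.5%, 20.7% and 23.7% to 6.23%, 6.11% and 7.73%. The groups did not overlap for either receptor, and both differences were larger than the spread within a group. Notch2 held 68.6% ± 3.28 of the receptor sum in vehicle and 67.2% ± 2.49 in RGS tumors (SD, n = 3), with overlapping groups. Summed receptor mRNA was 7.87 ± 2.09 RPKM in vehicle and 11.4 ± 1.13 RPKM in RGS tumors.

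Among the 5 canonical ligands, Dll4 made up 8.06%, 9.42% and 9.05% of the summed RPKM in vehicle tumors and 58.3%, 57.8% and 62.3% in RGS tumors. Jag1 went from 42.8% ± 5.89 to 19.0% ± 6.36, Dll1 from 37.9% ± 6.42 to 15.98% ± 3.86 and Jag2 from 10.5% ± 0.205 to 5.50% ± 0.916 (SD, n = 3). The levels of these 3 genes did not pass the test, and the ligand sum they are divided by, Dll4 included, went from 9.22 ± 1.62 to 19.2 ± 1.75 RPKM. With 3 tumors against 3, an exact two-sided permutation test of a share cannot give a p below 0.1, so the shares are given without a test.

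**Figure D2:**
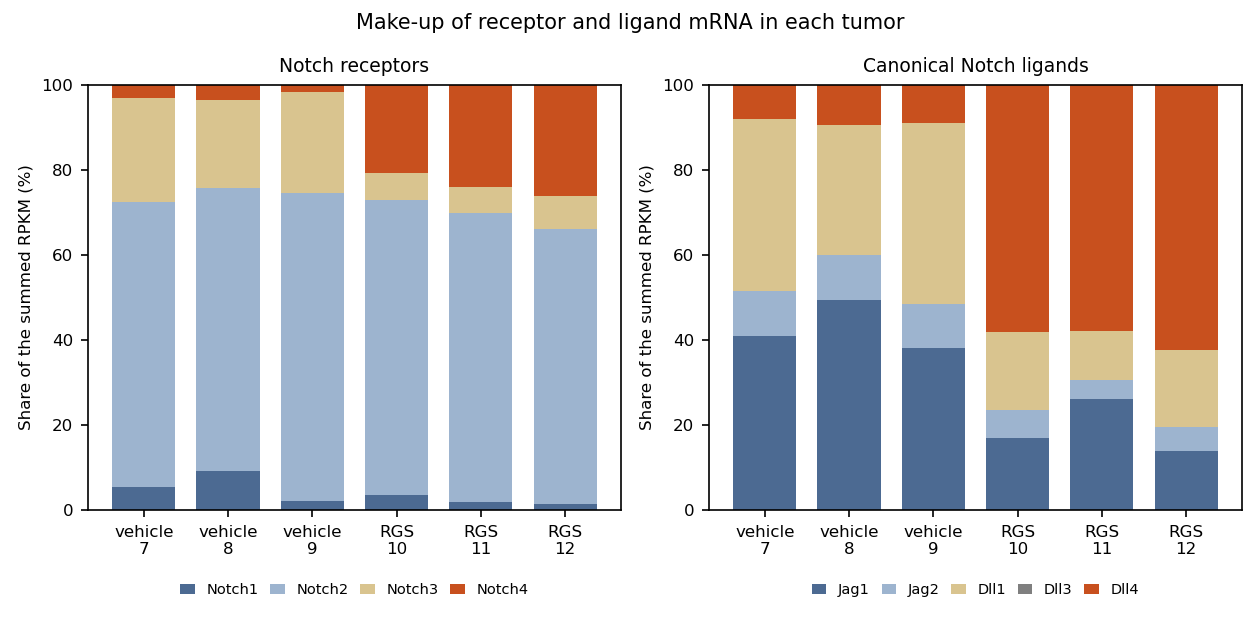
Share of the summed RPKM (vertical axis, percent) taken by each Notch receptor (left) and each canonical ligand (right) in the 6 tumors; each bar is 1 tumor. Notch4 takes 1.75% to 3.57% of receptor mRNA in vehicle and 20.8% to 26.3% in RGS tumors, and Dll4 takes 8.06% to 9.42% of ligand mRNA in vehicle and 57.8% to 62.3% in RGS tumors.

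The wider pathway was described with a list of 68 other genes, of which 66 were in the table under the listed symbol and 57 had enough counts to be tested. Of these, 14 were higher and 5 lower under RGS, beside 16.3% and 16.5% of all genes, and the median log2 fold change was 0.18. The groups did not overlap for 21 of the 57, beside 45.8% of all genes.

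On the ligand side, the secreted Notch antagonist Egfl7 rose (log2 fold change 1.10, SE 0.29, adjusted p = 0.00762) as the only one of 5 non-canonical ligands tested. Its levels were 5.45, 10.01 and 10.8 CPM in vehicle and 20.6, 17.2 and 18.2 CPM in RGS tumors. None of the 4 ubiquitin ligases that prepare ligands for endocytosis (Mib1, Mib2, Neurl1a and Neurl1b) and none of the 4 glycosyltransferases tested (Lfng, Rfng, Pofut1 and Poglut1) passed the threshold.

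Of the proteases that cut the receptor, Furin, which cleaves it on the way to the cell surface, rose from 155 ± 23.0 to 315 ± 27.9 CPM (log2 fold change 1.03, SE 0.16, adjusted p = 6.54e-05). Adam17 rose by less (log2 fold change 0.51, SE 0.18, adjusted p = 0.0381), and this call was lost on scaling by library size only and without vehicle 8, vehicle 9, RGS 10 or RGS 11. Adam10, the main ligand-dependent protease, did not pass, with 167, 131 and 124 CPM in vehicle and 146, 114 and 127 CPM in RGS tumors (log2 fold change -0.12, adjusted p = 0.617).

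Gamma-secretase, the complex that makes the final cut, had 3 of its 7 tested genes higher and 1 lower, beside 16.3% and 16.5% of all genes. Psen2, a catalytic subunit, rose from 4.85 ± 2.67 to 10.6 ± 2.26 CPM (log2 fold change 1.12, SE 0.41, adjusted p = 0.0427), but not without vehicle 8, vehicle 9, RGS 10 or RGS 12 or with library size only. Ncstn, the substrate-binding subunit, rose from 100 ± 21.0 to 184 ± 4.27 CPM (log2 fold change 0.87, adjusted p = 0.000566). Aph1b, a scaffold subunit, fell from 19.4 ± 1.74 to 9.27 ± 1.61 CPM (log2 fold change -1.07, SE 0.26, adjusted p = 0.00433). Aph1b has a close copy in the mouse, Aph1c, so reads may have been divided between them, which was not tested. Aph1c had 2.14 ± 0.914 CPM in vehicle and 0.879 ± 0.935 CPM in RGS tumors, with overlapping groups. It did not pass (log2 fold change -1.28, SE 0.94, adjusted p = 0.323, edgeR's quasi-likelihood test).

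Among 8 tested genes of receptor turnover, the Deltex family gave all 3 calls, beside 32.8% of all genes called in either direction. Dtx2 rose from 57.2 ± 15.7 to 167 ± 7.75 CPM (log2 fold change 1.54, SE 0.19, adjusted p = 4.43e-06). Dtx3l, a ubiquitin ligase also known from interferon and DNA damage responses, fell from 12.8, 9.66 and 9.59 CPM to 2.18, 0.603 and 1.71 CPM (log2 fold change -2.81, SE 0.47, adjusted p = 0.000142). Dtx3 fell by 0.46 on the log2 scale (SE 0.17, adjusted p = 0.0409), a call lost without vehicle 8, vehicle 9, RGS 10 or RGS 11. Numb, Numbl, Itch and Fbxw7, which limit receptor at the membrane or in the nucleus, did not pass.

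In the nuclear complex, Rbpj fell from 538, 439 and 408 CPM to 348, 328 and 273 CPM (log2 fold change -0.55, SE 0.16, adjusted p = 0.0133). All RGS tumors were below all vehicle tumors, and the call was lost only without RGS 12 among the 16 alternatives. Snw1, a cofactor of Rbpj and of splicing, fell as well (log2 fold change -0.69, SE 0.16, adjusted p = 0.00224), whereas the coactivator Maml3 rose (log2 fold change 1.04, SE 0.20, adjusted p = 0.000578). Maml1 and Maml2 did not pass.

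Of 11 tested corepressor genes, 4 were higher and none was lower, beside 16.3% and 16.5% of all genes. Among them the histone deacetylase Hdac2 (log2 fold change 0.95, adjusted p = 0.000278), the Groucho-related Aes (0.88, adjusted p = 0.000125) and the Rbpj-binding corepressor Cir1 (0.63, adjusted p = 0.0162) rose. The Cir1 call was lost with library size only and without vehicle 8, RGS 11 or RGS 12. Ncor1, Spen and Hdac1 did not pass.

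Further target genes gave 1 call among 6 tested, beside 32.8% of all genes called in either direction. Ptcra, a target known from developing T cells, had 0, 1 and 0 counts in vehicle and 0, 17 and 24 counts in RGS tumors, so RGS 10 matched the vehicle tumors. It passed with an adjusted p of 0.0324, but the call rested on RGS 11 and RGS 12 and was lost in 7 of 16 alternatives, among them without either of these tumors and without any one of the vehicle tumors. Nrarp, a direct target that damps the pathway, had 3.60, 5.13 and 3.35 CPM in vehicle and 3.93, 2.11 and 2.75 CPM in RGS tumors, with overlapping groups (log2 fold change -0.45, SE 0.53, adjusted p = 0.554). Hes5, another classical target, had no counts.

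**Figure D3:**
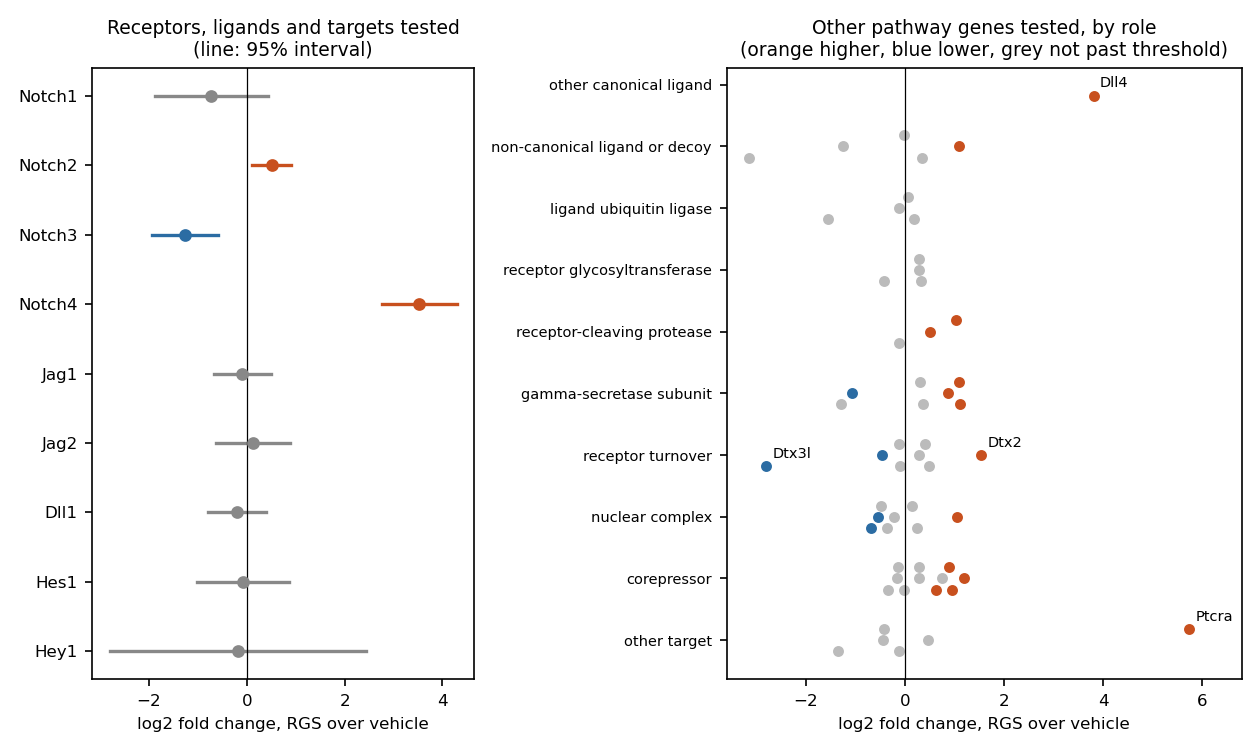
Log2 fold change of RGS over vehicle (horizontal axes) for the 9 tested genes with 95% intervals (left) and for the 57 other tested pathway genes by role (right); orange is higher, blue lower and grey not past an adjusted p of 0.05. Notch4 at 3.53 and Dll4 at 3.81 stand to the right of the other receptors and ligands, and Notch3 lies at -1.27; the rightmost point, Ptcra, rests on 2 tumors.

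In bulk tissue, fewer cells of a type and less RNA per cell cannot be told apart. Values of vascular markers are given beside Notch4, Dll4 and Notch3. Beside each count of marker calls stand 16.3% of all genes tested higher and 16.5% lower. The summed level of 12 endothelial markers was 72.9 to 107 CPM in vehicle and 98.2 to 113 CPM in RGS tumors. Erg, Emcn and Robo4 were at 0, 5 of the 12 had at most 3 counts in every tumor, and of 6 tested 2 were higher and none lower. The higher ones were Cdh5, the cadherin of endothelial junctions, with 0.685, 0.249 and 0.731 CPM against 5.68, 2.71 and 10.2 CPM, and Eng with a log2 fold change of 0.63 (adjusted p = 0.000637 and 0.00961). Flt1, which with Eng made up most of the sum, did not pass and had lower means under RGS, 41.9 ± 11.8 against 30.6 ± 1.59 CPM (log2 fold change -0.45, adjusted p = 0.11), and Tek had a log2 fold change of -1.88 (adjusted p = 0.431) on at most 14 counts. Esam and Pecam1 did not pass either, with log2 fold changes of 2.01 (adjusted p = 0.164) and 1.88 (adjusted p = 0.351, edgeR's quasi-likelihood test for each). They had at most 30 and 22 counts, and all RGS tumors were above all vehicle tumors for both. The groups did not overlap for 4 of the 6 tested, beside 45.8% of all genes. The receptors Kdr, with at most 6 counts, and Tie1 were close to absent.

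The summed level of 9 pericyte and smooth muscle markers was 176 to 251 CPM in vehicle and 446 to 505 CPM in RGS tumors. This list did not move as a block: of 5 tested, 2 were higher and 3 lower. Rgs5 rose from 1.30 ± 0.164 to 401 ± 29.5 CPM and made up most of the RGS sum. Des was also higher, with 0 counts in vehicle and 5 to 24 counts in RGS tumors. Pdgfrb (log2 fold change -2.20, adjusted p = 0.000179), Acta2 (-2.28, adjusted p = 6.63e-08) and Cspg4 (-0.87, adjusted p = 0.00339) fell (edgeR's quasi-likelihood test). Fibroblast markers summed to 231 to 294 CPM in vehicle and 182 to 191 CPM in RGS tumors, and 1 of 9 tested was higher and 2 lower. Macrophage markers summed to 211 to 284 and 923 to 1021 CPM, mostly from Laptm5, with 5 of 10 at no more than 3 counts, and 1 of 2 tested was higher. Keratinocyte markers summed to 4.49 to 7.39 and 39.2 to 58.4 CPM, with 6 of 10 at no more than 3 counts. The RGS sum came mostly from Sfn and Ivl, which were the 2 of 3 tested that were higher. T cell markers summed to 0.771 to 3.61 and 1.77 to 3.69 CPM, with 6 of 10 at no more than 3 counts and 1 of 2 tested higher. B cell markers did not exceed 0.473 CPM in any tumor. The part of any of these cell types in the values of Notch4, Dll4 and Notch3 was not tested.

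The genes whose pattern over the 6 tumors was most like that of Notch4, by the root mean square difference of centered log2 CPM, were Ism1 (0.185), Lilrb4a (0.209) and Gm6611 (0.215). Their log2 fold changes were 3.67, 3.78 and 4.53. For Notch3 they were Wdr62 (0.0988), Eef2k (0.112) and Tgfbr3 (0.116), with log2 fold changes of -1.23, -1.19 and -1.30.

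Across 16 alternative fits, which changed the scaling, filter, tool or depth or left out 1 tumor, Notch4 stayed higher and Notch3 stayed lower past the threshold in every one. Notch4 ranged from 3.22 to 3.88 and Notch3 from -1.42 to -0.97 on the log2 scale. With all libraries thinned to the total of the smallest, both calls held. Notch1 never passed and was negative in all 16, from -1.34 to -0.35.

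**Figure D4:**
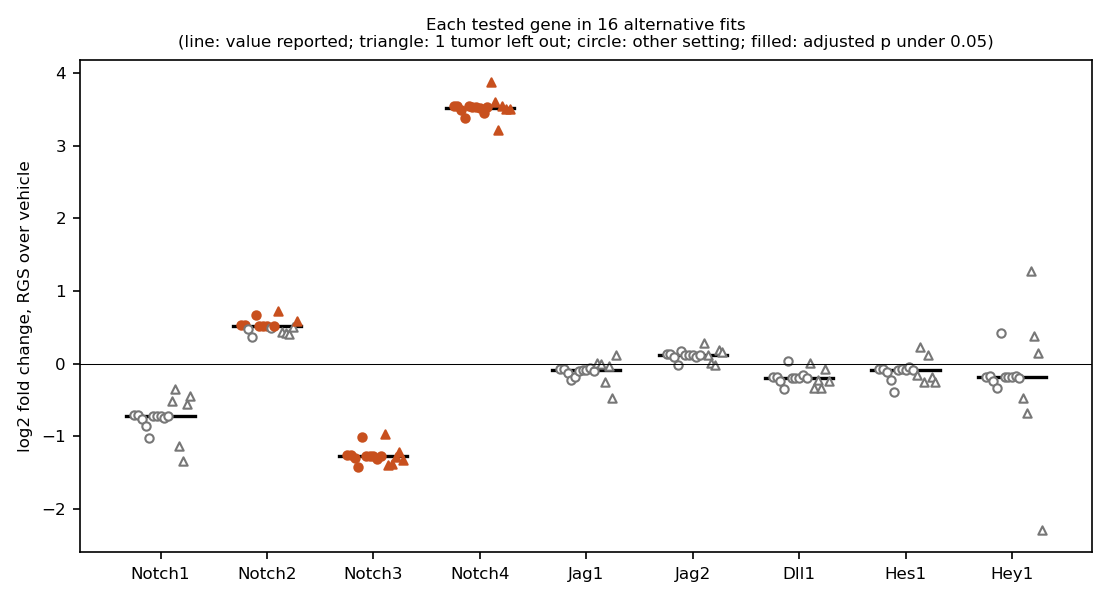
Log2 fold change of RGS over vehicle (vertical axis) of the 9 tested genes in 16 alternative fits; triangles leave out 1 tumor, circles change another setting, filled symbols have an adjusted p under 0.05 and the line is the value reported. Notch4 (3.22 to 3.88) and Notch3 (-1.42 to -0.97) are filled throughout, Notch2 is filled in 9 of 16, and Jag1, Jag2, Dll1, Hes1 and Hey1 lie on both sides of 0.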

How the data were processed

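Bulk RNA of 6 YUMM3.3 tumors was analysed (3 vehicle, 3 RGS), grouped by the treatment in the labels. The authors deposited a table of raw read counts per gene with gene positions and lengths. According to the submitters' processing notes, reads were handled with cutadapt 1.18, FastQC 0.11.7, STAR 2.7.1a and featureCounts 1.6.4 on build mm10. The strand and multimapping settings are not given in the sources used here, so reads of a gene and an overlapping antisense gene cannot be told apart.

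Genes with a median count of at least 5 in 1 or both groups were kept (15355 of 40166). The counts were tested with edgeR 4.0.16 (R 4.3.3) by the quasi-likelihood test with TMM factors and no covariate, with Benjamini-Hochberg adjustment over all genes tested and a threshold of 0.05. The SE was taken from the log2 fold change and the F statistic. RPKM was TMM-scaled CPM divided by the length in the table. Alternatives used DESeq2 1.42.0, limma 3.58.1 (voom), other scalings and filters, thinned counts and each tumor left out, and the shares were added as results after the data were seen. Scripts were tested on simulated data. Replicates differed by more than counting noise (chi-square per degree of freedom 19.6 to 125.2), and none was merged. Of the gene IDs, 38927 were also in GENCODE M21, all 38927 at the same position. The Notch3 ID was not among them in the same version, so this check did not cover its position. Its strand was taken by the ID without the version.

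The members and lists were chosen with earlier results of these data known. Named were the 10 genes, Dll4, Rbpj, Adam10, Adam17 and Nrarp, from each other role the largest called change in each direction, genes overlapping a named member by position, and for Notch4 and Notch3 the 3 genes of most similar pattern. Other pathway genes and single markers were added to the text with their values known. Dlk1 and Tle5 were not analysed here under these symbols, and the values of some pathway genes are not reported here.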

Additional observations from a re-analysis of the deposited data

How the results depend on the processing

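With a log2 fold change of at least 1 required as well, 1168 genes were higher and 1450 lower, 9 other pathway genes were higher and 2 lower, and 1 of the 10 Notch genes was higher. That count was also 1 with upper-quartile factors, with library size only and with thinned counts, and 1 to 2 when single tumors were left out, because Notch2 lost its call. Its log2 fold changes there were 0.48 (adjusted p = 0.0506), 0.37 (0.17) and 0.49 (0.0594), all from edgeR's quasi-likelihood test. With library size only, the median over all genes moved from -0.0479 to -0.188 and the split of calls from 2503 higher and 2533 lower to 1870 higher and 3152 lower; Notch4 and Notch3 kept direction and call.

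Genes that were not called changed sign in some settings: Jag2 with library size only (-0.0193), and Dll1 and Hey1 with limma voom (0.042 and 0.42). On leaving out single tumors Jag1 ranged from -0.47 to 0.12, Jag2 from -0.0152 to 0.28, Dll1 from -0.34 to 0.0149, Hes1 from -0.26 to 0.24 and Hey1 from -2.29 to 1.28. The cause was not tested. In shares of CPM instead of RPKM, an alternative added after seeing the data, the difference between RGS and vehicle was 16.9 percentage points for Notch4, -12.6 for Notch3 and 44.9 for Dll4, against 20.9, -16.3 and 50.6. No paired analysis was possible because the groups share no replicate number. Thinning left Hey1 at -0.18 against -0.19, and Heyl had no reads at any depth here.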
